A study of Homo sapiens with 12 samples.

Results

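The intestinal lineage transcription factors CDX1, CDX2, ISX, GATA4, GATA5, GATA6, KLF4 and KLF5 were followed as the 8 rows of the deposited expression table that carry these symbols, out of 58735 genes. All 8 passed the filter on low values (at least 1 FPKM in at least 3 libraries), as did 12561 genes in all, and 706 of the genes tested carry a transcription factor family in the table. CDX1 and CDX2 are caudal-type homeobox proteins, and CDX2 is the factor that sets and keeps the intestinal identity of gut epithelium. ISX is an intestine-specific homeobox repressor of carotenoid and retinoid uptake and is itself a target of CDX2. The zinc finger proteins GATA4, GATA5 and GATA6 mark endoderm and bind enterocyte genes, with GATA4 known from the proximal intestine, and the Krüppel-like factors KLF4 and KLF5 are known as a pair with opposed roles, KLF4 in differentiated cells that have left the cell cycle and KLF5 in dividing crypt cells.

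RNA was sequenced from enterocytes differentiated from 1 human induced pluripotent stem cell line, RPChiPS771, to learn how the histone deacetylase inhibitor valproic acid and vitamin D3 act on their differentiation. All cultures were kept in medium M3 from day 15 to day 23, with 1 µM VD3 and 100 µM VPA together (VD3VPA), with 1 µM VD3 (VD3), with 100 µM VPA (VPA) or with neither (Control), and each of the 4 groups had 3 libraries. Whether replicate libraries stem from separate cultures is not stated in the labels, and p-values therefore reflect the variation among these libraries alone, possibly of technical origin. Levels are in FPKM (fragments per kilobase of gene, normalised for library size), given as mean ± SD with n = 3. Fold changes were taken on log2(FPKM + 1), where a change of a weakly expressed gene appears too small. A difference counted as higher or lower at an adjusted p under 0.05 (limma, Benjamini-Hochberg over the genes tested). The assay reads bulk RNA, in which fewer cells of a type and less RNA per cell cannot be told apart.

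The libraries held 32160289 to 43998467 fragments on genes. All 14 enterocyte markers listed were expressed, with summed levels of 24150 to 27203 FPKM in VD3VPA libraries, 22049 to 27666 FPKM in VD3 libraries, 21926 to 24082 FPKM in VPA libraries and 7927 to 9610 FPKM in Control libraries, most of it from the apolipoproteins APOA1 and APOA4. The sucrase-isomaltase gene SI, of the small intestinal brush border, reached a mean of only 0.105 to 1.15 FPKM in the 4 groups. Against Control 7 of the 14 markers were higher and 5 lower with VD3VPA, 8 and 2 with VD3, and 8 and 3 with VPA. Over all genes these shares were 31.1% and 33.1%, 31.3% and 31.2%, and 29.6% and 23.1%. The brush border enzyme genes LCT (log2 fold change 4.76) and ALPI (4.85) were among those higher with VD3VPA. All 8 hepatocyte markers were expressed as well, at summed levels of 31831 to 41297 FPKM. Most of it came from AFP (group means of 22799 to 30636 FPKM) and TTR (4636 to 6756 FPKM). Against Control 4 of the 8 were higher and 2 lower with VD3VPA, 4 and 1 with VD3, and 1 and 5 with VPA. Liver shares GATA4 and GATA6 with gut. The 8 cardiac markers, which would accompany GATA4, GATA5 and GATA6 in heart cells, summed to 1.74 to 2.42 FPKM in VD3VPA, 1.37 to 1.47 FPKM in VD3, 0.998 to 1.499 FPKM in VPA and 1.72 to 2.54 FPKM in Control. Of these, MYH6, MYH7, NKX2-5 and TBX5 stayed under 0.1 FPKM in every library, and 1, the troponin TNNT2, passed the filter, with means of 1.43 FPKM in VD3VPA, 1.06 FPKM in VD3, 0.824 FPKM in VPA and 1.32 FPKM in Control. TNNT2, near the filter in every group, was lower with VPA (-0.33, adjusted p = 0.0109). The 7 pluripotency markers summed to 2.40 to 2.98 FPKM in VD3VPA, 1.80 to 2.78 FPKM in VD3, 2.28 to 2.56 FPKM in VPA and 1.32 to 1.37 FPKM in Control. POU5F1, NANOG and SOX2 stayed under 0.1 FPKM in every library, and 1, ZFP42, passed the filter, higher with VPA (0.32, adjusted p = 0.0023). ZFP42 was not called with VD3VPA (-0.07, adjusted p = 0.399) or VD3 (-0.02, adjusted p = 0.789). With libraries scaled to equal FPKM sums or to their own fragment totals, 2 of these markers passed the filter. Then 1 was called higher with VD3VPA, 1 with VD3 and 1 with VPA. The part of these other cell types in the levels of the 8 factors was not tested.

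CDX2 was the most abundant of the 8 factors in all 12 libraries, and CDX1 and ISX were the least abundant. By group mean CDX2 ranked 18 in VD3VPA, 15 in VD3, 19 in VPA and 15 in Control among 706 transcription factors, whereas CDX1 ranked 626 in VD3VPA, 550 in VD3, 381 in VPA and 357 in Control. The order of the other 5 differed between groups. In the VPA and Control libraries KLF4 came next to CDX2 in every library, and GATA5 was above KLF5 and GATA4. In the VD3VPA libraries GATA6, KLF5, KLF4, GATA4 and GATA5 followed CDX2 in this order, and in the VD3 libraries KLF5 led GATA6. Neighbours in that order whose libraries overlapped were ISX and CDX1 in both groups with VD3, GATA6 and KLF4 (25.6 ± 1.53 and 24.5 ± 2.09 FPKM) and GATA4 and GATA5 in VD3, and KLF4, GATA5, GATA6 and KLF5, each with the next, in Control (21.6 ± 2.13, 19.9 ± 1.75, 19.4 ± 1.26 and 17.1 ± 1.49 FPKM). In VPA no neighbours overlapped.

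**Figure D1:**
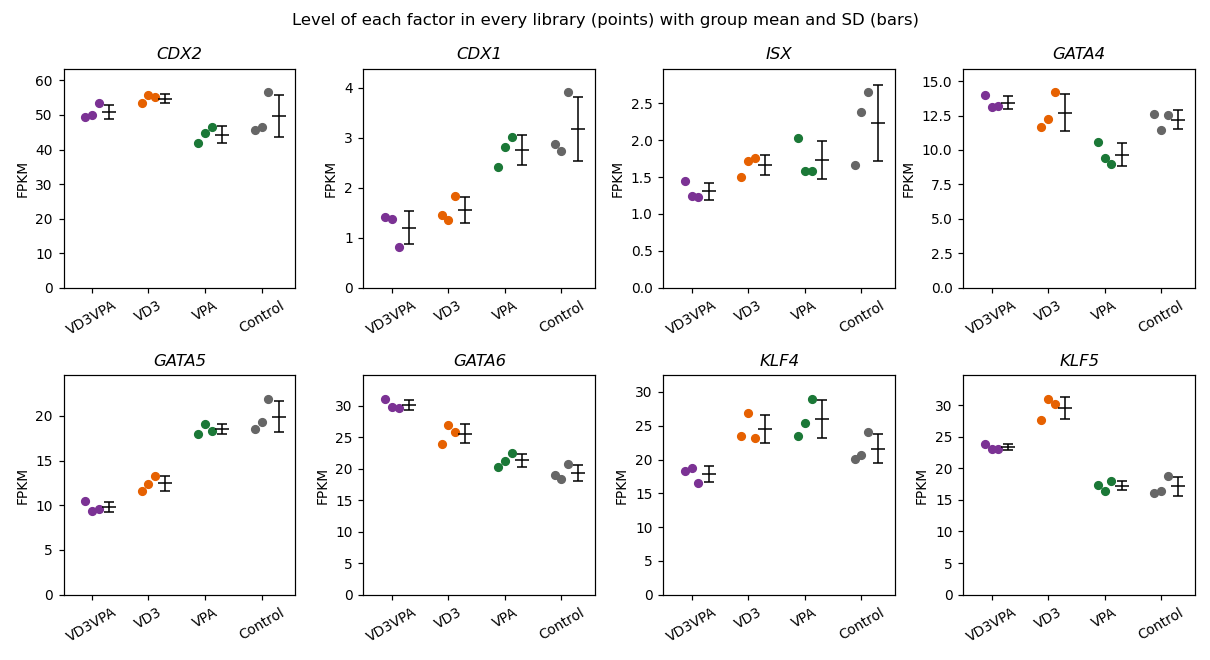
FPKM of each factor in every library (points, left to right VD3VPA, VD3, VPA and Control) with the group mean and SD of 3 libraries (bars), on axes that start at 0. CDX2 lies between 41.8 and 56.6 FPKM in all libraries, GATA5 and CDX1 are low and GATA6 and KLF5 are high in both groups that received VD3, and KLF4 is lowest in VD3VPA.

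Against Control, the combination of both compounds raised 2 of the 8 factors, GATA6 and KLF5, and lowered 4, CDX1, ISX, GATA5 and KLF4. CDX2 and GATA4 did not pass the test. In this comparison 64.3% of all genes tested were called, 31.1% higher and 33.1% lower, so 6 of 8 is near the background, and the members' median log2 fold change of -0.11 compares with -0.01 over all genes. VD3VPA and Control libraries did not overlap for 7 of the 8 factors, against 68.8% of all genes.

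CDX2 (ENSG00000165556; GRCh38 chromosome 13, 27962137 to 27971139, minus strand), the homeobox factor that specifies intestine, was measured at 49.5, 49.9 and 53.4 FPKM in VD3VPA, 53.4, 55.7 and 55.1 FPKM in VD3, 41.8, 44.8 and 46.4 FPKM in VPA, and 45.7, 46.6 and 56.6 FPKM in Control. The third Control library was the highest of all 12, so Control overlapped each of the other groups, while every VD3VPA library lay above every VPA library. CDX2 averaged 50.9 ± 2.13 FPKM in VD3VPA and 49.6 ± 6.07 FPKM in Control, a log2 fold change of 0.04 with a 95% interval of -0.12 to 0.20 (adjusted p = 0.646). The difference was 0.14 for VD3 against Control (interval -0.02 to 0.31, adjusted p = 0.108) and -0.15 for VPA against Control (interval -0.32 to 0.01, adjusted p = 0.0998). VD3VPA exceeded VPA by 0.20 (SE 0.0738, adjusted p = 0.0361). That call was lost without any of the VD3VPA libraries or without VPA replicate 1 or 2 (adjusted p up to 0.129), and with no filter on low values (0.0866). Without Control replicate 3, CDX2 was higher than Control in VD3VPA (0.14, adjusted p = 0.0448) and in VD3 (0.24, adjusted p = 0.00275), and without Control replicate 1 it was lower in VPA (-0.21, adjusted p = 0.0409). The 3 other scalings also called CDX2 lower in VPA, at -0.23 with equal FPKM sums, -0.29 under quantile normalization and -0.28 with own fragment totals (adjusted p = 0.0321, 0.0104 and 0.00795).

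CDX1 (ENSG00000113722; chromosome 5, 150166795 to 150184558, plus strand), the paralog of CDX2, was lower in the cultures that received VD3. Its levels were 1.42, 1.37 and 0.817 FPKM in VD3VPA, 1.45, 1.37 and 1.85 FPKM in VD3, 2.43, 2.82 and 3.01 FPKM in VPA, and 2.89, 2.74 and 3.92 FPKM in Control. All 6 libraries with VD3 lay below all 6 without it. CDX1 averaged 1.204 ± 0.336 FPKM in VD3VPA and 3.18 ± 0.642 FPKM in Control, and fell by 62.2% (log2 fold change -0.92, SE 0.131, adjusted p = 7.05e-05). With VD3 alone, at 1.55 ± 0.257 FPKM, it fell by 51.2% (-0.71, adjusted p = 0.00061). VPA alone left it at 2.75 ± 0.298 FPKM, a difference from Control of -0.15 that did not pass (interval -0.44 to 0.14, adjusted p = 0.366). VD3VPA was also lower than VPA, with a log2 fold change of -0.78 (adjusted p = 0.000285). These 3 calls held in all 20 alternatives that kept the gene, although the counts behind CDX1 were only 54 to 294 fragments per library. The share of CDX1 in the summed level of CDX1 and CDX2 was 2.33% ± 0.711 in VD3VPA, 2.76% ± 0.438 in VD3, 5.84% ± 0.309 in VPA and 5.99% ± 0.461 in Control.

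ISX (ENSG00000175329; chromosome 22, 35066136 to 35087387, plus strand), the intestine-specific homeobox repressor, was detected at 1.44, 1.25 and 1.23 FPKM in VD3VPA, 1.51, 1.71 and 1.76 FPKM in VD3, 2.03, 1.58 and 1.58 FPKM in VPA, and 1.67, 2.38 and 2.65 FPKM in Control. The VD3VPA libraries were below all the others, and the first Control library lay within the range of VD3 and VPA. ISX averaged 1.30 ± 0.119 FPKM in VD3VPA and 2.23 ± 0.509 FPKM in Control, and fell by 41.6% (log2 fold change -0.48, SE 0.108, adjusted p = 0.00217). The lower level with VD3 alone (1.66 ± 0.133 FPKM, -0.27, adjusted p = 0.0459) was at the threshold. It was lost in 14 of 20 alternatives, among them the removal of any single library other than VPA replicate 1 or Control replicate 1 (adjusted p 0.0522 to 0.182). VPA alone stood at 1.73 ± 0.260 FPKM (-0.23, adjusted p = 0.0884), a call gained without VPA replicate 1 (-0.31, adjusted p = 0.0444) or Control replicate 1 (-0.37, adjusted p = 0.00475). Equal FPKM sums (-0.29, adjusted p = 0.0485) and own fragment totals (-0.32, adjusted p = 0.026) also gave this call. The difference of VD3VPA from VPA (-0.24, adjusted p = 0.0683) likewise passed without Control replicate 1 (0.0162) or Control replicate 3 (0.0469), whose removal changes only the shared spread. That difference also passed under quantile normalization (-0.28, adjusted p = 0.0402) and with only the groups compared (adjusted p = 0.0334).

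The 228 bases before the annotated start of ISX (chr22:35065908-35066135, plus strand, GRCh38.p14, from RefSeq) are shown because ISX is known as a target of another of the 8 factors, with a GATA-type match (TGATAA, here on the reverse strand as TTATCA) in capitals. The letters TGATAA, on either strand, occur in 6.66% of 35116 promoter windows of the same table. The match is a description of the sequence, not a binding site. The known regulator of ISX among the 8 is CDX2, whose core TTTAT (32.7% of windows) was searched and not found in this window.
ISX: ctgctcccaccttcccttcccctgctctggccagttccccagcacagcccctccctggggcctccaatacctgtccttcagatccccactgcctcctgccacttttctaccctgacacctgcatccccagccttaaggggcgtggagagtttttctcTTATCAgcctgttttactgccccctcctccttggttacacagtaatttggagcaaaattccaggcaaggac

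The GATA factors moved apart from each other. GATA6 rose and GATA5 fell wherever VD3 was present, and GATA4 was lower with VPA alone. Their summed level was 53.4 ± 1.89 FPKM in VD3VPA, 50.7 ± 3.16 FPKM in VD3, 49.5 ± 0.502 FPKM in VPA and 51.5 ± 3.30 FPKM in Control, and the shares within it differed between groups. GATA6 made up 56.5% ± 0.519 of that sum in VD3VPA, 50.5% ± 1.90 in VD3, 43.1% ± 1.87 in VPA and 37.6% ± 0.198 in Control. GATA5 made up 18.4% ± 0.486 in VD3VPA, 24.5% ± 0.438 in VD3, 37.4% ± 0.873 in VPA and 38.6% ± 1.40 in Control. GATA5 and GATA6 thus held overlapping shares in Control, and GATA5 was the smallest part in VD3VPA.

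GATA5 (ENSG00000130700; chromosome 20, 62463497 to 62475970, minus strand), in mouse a factor of the differentiated intestinal epithelium, was measured at 10.5, 9.40 and 9.53 FPKM in VD3VPA, 11.6, 12.4 and 13.3 FPKM in VD3, 18.0, 19.1 and 18.3 FPKM in VPA, and 18.6, 19.3 and 21.9 FPKM in Control. The libraries with VD3 lay below all libraries without it, and VD3VPA lay below VD3. GATA5 averaged 9.81 ± 0.604 FPKM in VD3VPA and 19.9 ± 1.75 FPKM in Control, and fell by 50.7% (log2 fold change -0.95, SE 0.0668, adjusted p = 2.34e-07). With VD3 alone (12.4 ± 0.846 FPKM) it fell by 37.6% (-0.64, adjusted p = 7.2e-06), and VPA added to VD3 lowered it further (-0.31, adjusted p = 0.004). VPA alone (18.5 ± 0.558 FPKM) differed from Control by -0.10 (interval -0.25 to 0.05, adjusted p = 0.231), which passed under the 3 other scalings (adjusted p 0.0097 to 0.0412). Among the 706 transcription factors, 22 had a more negative change than GATA5 in VD3VPA against Control.

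GATA6 (ENSG00000141448; chromosome 18, 22169443 to 22202528, plus strand), an endoderm factor expressed along the whole intestine, was measured at 31.1, 29.8 and 29.6 FPKM in VD3VPA, 24.0, 27.0 and 25.9 FPKM in VD3, 20.3, 21.3 and 22.4 FPKM in VPA, and 19.0, 18.4 and 20.8 FPKM in Control. VD3VPA lay above VD3, and VD3 above both VPA and Control, which overlapped. GATA6 averaged 30.2 ± 0.812 FPKM in VD3VPA and 19.4 ± 1.26 FPKM in Control, 55.6% higher (log2 fold change 0.61, SE 0.0580, adjusted p = 2.68e-06). VD3 alone gave 25.6 ± 1.53 FPKM (0.38, adjusted p = 0.000134), and VPA added to VD3 a further 0.23 (adjusted p = 0.00989). VPA alone gave 21.3 ± 1.09 FPKM (0.13, adjusted p = 0.0783), which passed without Control replicate 3 (0.18, adjusted p = 0.0255).

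Of the 8 factors, GATA6 was the one whose coordinates overlap other genes in the table. The antisense gene GATA6-AS1 (chromosome 18, 22164886 to 22169878, minus strand) averaged 6.42 ± 0.365 FPKM in VD3VPA, 4.64 ± 0.325 FPKM in VD3, 2.85 ± 0.196 FPKM in VPA and 2.99 ± 0.408 FPKM in Control. It was higher with VD3VPA (0.90, adjusted p = 1.02e-06) and with VD3 (0.50, adjusted p = 0.00013), as GATA6 was, and VPA alone differed from Control by -0.05 (adjusted p = 0.631). The antisense genes AC091588.3 and AC091588.1 also overlap GATA6. AC091588.3, at means of 0.492 to 1.18 FPKM, was higher with VD3VPA (0.43, adjusted p = 0.00489) and VD3 (0.29, adjusted p = 0.0343). AC091588.1 was higher with VD3 (0.56, adjusted p = 0.0437) and not called with VD3VPA (0.39, adjusted p = 0.137). The strand setting of the counting is not given in the sources used here, so reads of GATA6 and of these genes in the overlaps cannot be told apart. The stretch of 104 bases before the annotated start of GATA6 (chr18:22169339-22169442, plus strand, GRCh38.p14, from RefSeq) lies inside GATA6-AS1 and is shown for that reason. Capitals mark CACCC, the core of Krüppel-like factor boxes, which occurs on either strand in 54.7% of promoter windows.
GATA6: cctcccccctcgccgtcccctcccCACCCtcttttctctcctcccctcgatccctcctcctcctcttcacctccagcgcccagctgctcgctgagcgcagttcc

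GATA4 (ENSG00000136574; chromosome 8, 11676959 to 11760002, plus strand), the factor of the proximal small intestine, was measured at 14.0, 13.1 and 13.2 FPKM in VD3VPA, 11.7, 12.3 and 14.2 FPKM in VD3, 10.6, 9.43 and 8.96 FPKM in VPA, and 12.6, 11.4 and 12.6 FPKM in Control. The 3 VPA libraries were the lowest of all 12. GATA4 averaged 9.67 ± 0.849 FPKM in VPA and 12.2 ± 0.666 FPKM in Control, and fell by 20.8% (log2 fold change -0.31, SE 0.0744, adjusted p = 0.00449). With VD3VPA (13.4 ± 0.487 FPKM) and VD3 (12.7 ± 1.32 FPKM) it did not pass against Control, at 0.13 (adjusted p = 0.151) and 0.05 (adjusted p = 0.568). VD3VPA exceeded VPA by 0.44 (adjusted p = 0.000303).

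**Figure D2:**
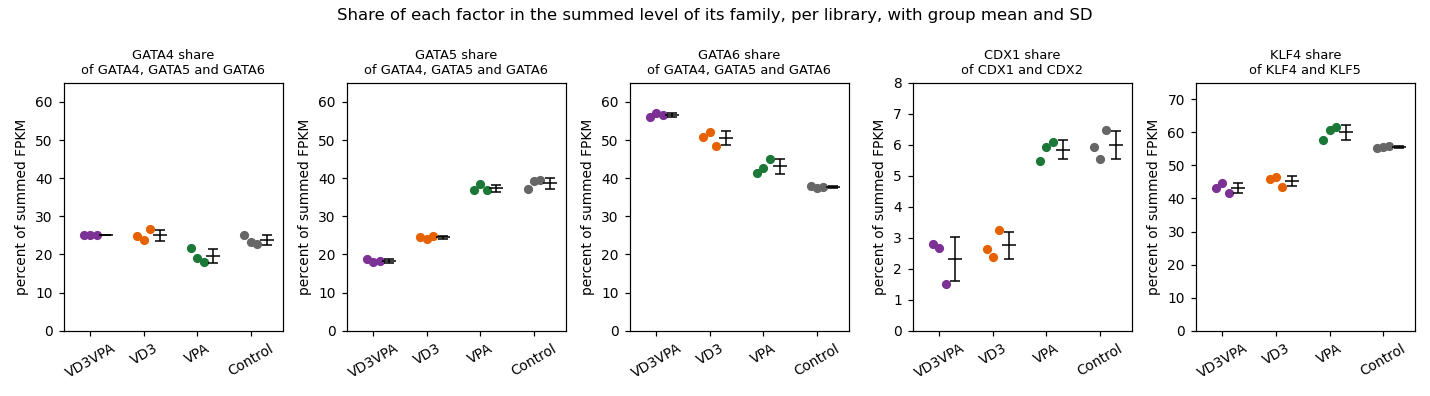
Percent of the summed FPKM of each family taken by 1 member, per library (points) with the group mean and SD of 3 libraries (bars). GATA6 averages 56.5% of the GATA sum in VD3VPA and 37.6% in Control, GATA5 averages 18.4% in VD3VPA and 38.6% in Control, and CDX1 takes 2.33% of the CDX sum in VD3VPA and 5.99% in Control.

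The Krüppel-like factors changed order between groups. KLF5 exceeded KLF4 in the libraries with VD3, and KLF4 exceeded KLF5 in those without. KLF4 took 43.3% ± 1.52 of their sum in VD3VPA, 45.3% ± 1.56 in VD3, 60.0% ± 2.17 in VPA and 55.7% ± 0.310 in Control.

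KLF5 (ENSG00000102554; chromosome 13, 73054976 to 73077542, plus strand), the factor of dividing crypt cells, was measured at 23.9, 23.1 and 23.1 FPKM in VD3VPA, 27.6, 31.0 and 30.1 FPKM in VD3, 17.4, 16.5 and 18.0 FPKM in VPA, and 16.1, 16.4 and 18.8 FPKM in Control. VD3 was the highest group and VD3VPA stood between it and the pair without VD3, with no overlap. KLF5 averaged 29.5 ± 1.77 FPKM in VD3 and 17.1 ± 1.49 FPKM in Control, 72.4% higher (log2 fold change 0.75, SE 0.0618, adjusted p = 1.03e-06). Of 706 transcription factors, 32 had a larger positive change in that comparison. In VD3VPA the mean was 23.4 ± 0.487 FPKM, with a log2 fold change of 0.43 over Control (adjusted p = 8.38e-05) and of -0.33 against VD3 (adjusted p = 0.00204). VPA alone (17.3 ± 0.756 FPKM) differed from Control by 0.01 (interval -0.12 to 0.15, adjusted p = 0.888).

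KLF5 had the largest rise of the 8 with VD3, and the 250 bases before its annotated start (chr13:73054726-73054975, plus strand, GRCh38.p14, from RefSeq) are shown for that reason. Capitals mark, from the 5′ end, the CDX core TTTAT on the reverse strand (32.7% of promoter windows hold it), the hexamer GGTTCA, 1 of 3 half-site forms of the vitamin D receptor searched (7.16% of windows), and CACCC on the reverse strand. The other half-sites searched, AGGTCA (12.1% of windows) and AGTTCA (8.8%), were not among the letters of this window. Nor was the GATA motif AGATAA (9.17%), which can overlap TTTAT on the opposite strand. GGTTCA was also found in the window of CDX2, which was not called with VD3 (adjusted p = 0.108, limma). A second window of KLF5 held CACCC and no half-site searched. The matches describe the sequence and are not binding sites.
KLF5: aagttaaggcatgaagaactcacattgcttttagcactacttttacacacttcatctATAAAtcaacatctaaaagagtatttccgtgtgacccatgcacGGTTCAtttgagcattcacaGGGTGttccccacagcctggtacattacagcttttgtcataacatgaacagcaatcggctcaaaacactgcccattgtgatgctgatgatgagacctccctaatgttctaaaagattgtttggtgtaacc

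KLF4 (ENSG00000136826; chromosome 9, 107484852 to 107490482, minus strand), linked to growth arrest and differentiation, was measured at 18.3, 18.7 and 16.6 FPKM in VD3VPA, 23.4, 26.9 and 23.2 FPKM in VD3, 23.5, 25.5 and 29.0 FPKM in VPA, and 20.1, 20.7 and 24.0 FPKM in Control. The 3 VD3VPA libraries were the lowest of all 12, and the other groups overlapped. KLF4 averaged 17.9 ± 1.14 FPKM in VD3VPA and 21.6 ± 2.13 FPKM in Control, and fell by 17.3% (log2 fold change -0.26, SE 0.0893, adjusted p = 0.0246). This call was lost without VD3VPA replicate 3 (adjusted p = 0.0946), without Control replicate 3 (0.103) and with no filter on low values (0.0664). VPA alone raised it to 26.0 ± 2.75 FPKM (0.26, adjusted p = 0.0306), a call lost in 9 of 21 alternatives, which include the 3 other scalings (adjusted p 0.122 to 0.221) and leaving out VPA replicate 2 or 3 or Control replicate 1 or 2 (0.0564 to 0.125). VD3 alone gave 24.5 ± 2.09 FPKM (0.18, adjusted p = 0.103), which passed without Control replicate 3 (0.25, adjusted p = 0.0313). The fall of VD3VPA below VD3 (-0.44, adjusted p = 0.00316) and below VPA (-0.51, adjusted p = 0.000357) held in all 21 alternatives.

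**Figure D3:**
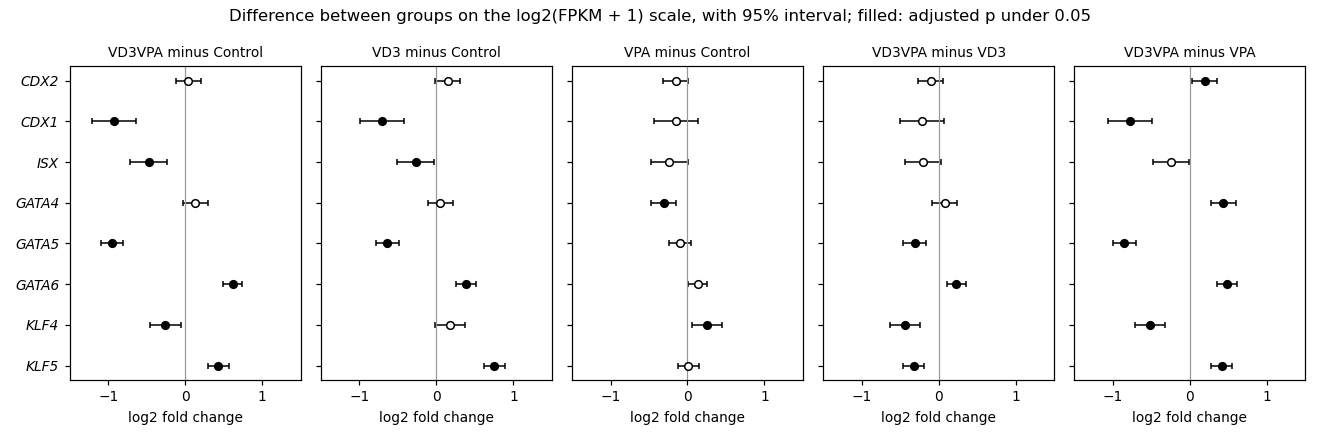
Log2 fold change of each factor (rows) in the 5 comparisons of 2 groups, with the 95% interval from limma, where filled points have an adjusted p under 0.05. CDX1 and GATA5 lie left of 0 and GATA6 and KLF5 right of 0 in the 3 comparisons that add VD3, and in VPA minus Control only GATA4 (-0.31) and KLF4 (0.26) are filled.

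Counted over the single-compound comparisons, VD3 alone raised 2 of the 8 factors (GATA6, KLF5) and lowered 3 (CDX1, ISX, GATA5), with 62.5% of all genes called, 31.3% higher and 31.2% lower. VD3 and Control libraries did not overlap for 4 of the 8, against 65.9% of all genes. VPA alone raised 1 (KLF4) and lowered 1 (GATA4), where 52.7% of all genes were called, 29.6% higher and 23.1% lower, and its libraries did not overlap with Control for 1 of 8, GATA4, against 57.5% of all genes. The share of transcription factors called with VPA was 49.6%, so the 2 of 8 lay under both backgrounds. With each library scaled to its own fragment total, the median of all genes in VPA against Control shifted by -0.103 on the log2 scale, and that of the difference between the VD3 effects with and without VPA by 0.13. Then 4 factors were lower (CDX2, ISX, GATA4 and GATA5), where 4551 of all genes were called lower, against 2899 in the deposited scaling. GATA4 stood at -0.43 and KLF4 no longer passed (0.14, adjusted p = 0.222). Over all genes 36.3% of the calls were higher (43.8% with equal FPKM sums), against 56.2% in the deposited scaling.

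When VPA was added to VD3, 1 factor was higher (GATA6) and 3 were lower (GATA5, KLF4, KLF5), against 34.7% of all genes called, 17.5% higher and 17.2% lower. VD3VPA and VD3 libraries did not overlap for 6 of the 8 factors, against 51.4% of all genes. When VD3 was added to VPA, 4 factors were higher (CDX2, GATA4, GATA6, KLF5) and 3 lower (CDX1, GATA5, KLF4), against 63.3% of all genes, 28.6% higher and 34.7% lower. For that comparison the libraries of VD3VPA and VPA did not overlap for any of the 8 factors, against 70.1% of all genes. The median over the 8 was -0.21 for VD3VPA against VD3 and -0.02 for VD3VPA against VPA, with 0.01 and -0.03 over all genes.

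The test of whether the VD3 effect differed with VPA present, (VD3VPA minus VPA) minus (VD3 minus Control), called 3 of the 8 factors, against 44.3% of all genes (19% higher and 25.3% lower). The share of higher among all these calls was 42.9%, which became 55.9% with equal FPKM sums and 67.3% with own totals. For GATA4 the VD3 effect was 0.44 with VPA and 0.05 without it, a difference of 0.39 (SE 0.105, adjusted p = 0.0115). For KLF4 the VD3 effect was -0.51 with VPA and 0.18 without it, a difference of -0.69 (SE 0.126, adjusted p = 0.00116), and 23 of 706 transcription factors had a more negative one. For KLF5 the effect was 0.42 with VPA and 0.75 without it, a difference of -0.34 (SE 0.0874, adjusted p = 0.00885), lost under quantile normalization (-0.22, adjusted p = 0.0625) and with each library's own total (-0.18, adjusted p = 0.098). CDX2, CDX1, ISX and GATA6 gave differences of 0.05, -0.07, 0.03 and 0.10 with adjusted p from 0.354 to 0.899, and GATA5 gave -0.21 (interval -0.42 to -0.01, adjusted p = 0.0887). GATA5 passed without Control replicate 3 (-0.28, adjusted p = 0.021), and GATA6 passed under quantile normalization (0.24, adjusted p = 0.0299) and with own totals (0.25, adjusted p = 0.019).

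**Figure D4:**
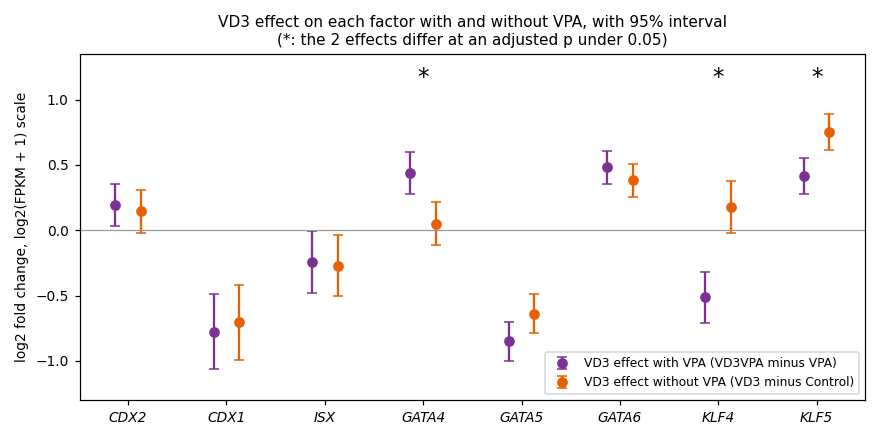
VD3 effect on each factor (log2 fold change, 95% interval) with VPA present (VD3VPA minus VPA, left point of each pair) and absent (VD3 minus Control, right point), with an asterisk where the difference between both effects has an adjusted p under 0.05. GATA4 (0.44 and 0.05), KLF4 (-0.51 and 0.18) and KLF5 (0.42 and 0.75) carry an asterisk, and CDX1 (-0.78 and -0.71) lies low in both.

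Other members of the same families gave a context. Of 15 other KLF genes, 9 were expressed, and with VPA alone 7 were higher and 1 (KLF16) lower, a median of 0.40, where 29.6% of all genes were higher and 23.1% lower (20.8% and 28.8% of transcription factors). Under the 3 other scalings 5 or 6 were higher and 1 lower, with medians of 0.29 to 0.34. The repressor KLF11 averaged 2.53 FPKM in VD3VPA, 1.47 FPKM in VD3, 1.56 FPKM in VPA and 0.739 FPKM in Control, a rise over Control of 1.02 with VD3VPA, 0.50 with VD3 and 0.56 with VPA (adjusted p up to 1.45e-05). KLF10, a TGF-beta response gene, averaged 3.13 FPKM in VD3VPA, 3.53 FPKM in VD3, 10.4 FPKM in VPA and 7.14 FPKM in Control, a change of -0.98 with VD3VPA, -0.85 with VD3 and 0.49 with VPA. In the test of the VD3 effect with and without VPA, 5 of the 9 were called lower, against 25.3% of all genes, among them KLF3 (-0.47), KLF6 (-0.998) and KLF13 (-0.66), and none higher, which became 1 under each of the 3 other scalings. Of the other GATA and CDX genes and GATA cofactors, 5 of 10 were expressed. GATA3, a factor of other epithelia and of T cells, averaged 0.551 FPKM in VD3VPA, 0.991 FPKM in VD3, 2.85 FPKM in VPA and 0.576 FPKM in Control. It was higher with VPA alone (1.29, adjusted p = 1.81e-06), the group through which it mainly passed the filter of 1 FPKM. The cofactor ZFPM1, known as FOG1, averaged 4.96 FPKM in VD3VPA and 2.64 FPKM in Control (0.72, adjusted p = 5.28e-06).

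Of 17 further transcription factors of enterocytes, 16 were expressed. Against Control 9 were higher and 5 lower with VD3VPA, 9 and 4 with VD3, and 3 and 6 with VPA. Over all genes 31.1% were higher and 33.1% lower with VD3VPA, 31.3% and 31.2% with VD3, and 29.6% and 23.1% with VPA. Own fragment totals gave 6 higher and 5 lower with VD3, and the other scalings gave 3 and 9 or 3 and 10 with VPA. TCF7L2, the Wnt effector of intestinal epithelium, averaged 15.9 FPKM in VD3VPA, 12.5 FPKM in VD3, 7.27 FPKM in VPA and 8.25 FPKM in Control (0.87 with VD3VPA, 0.55 with VD3 and -0.16 with VPA, all called). FOXA1, a pioneer factor of endoderm, was lower than in Control with VD3VPA (-0.50), VD3 (-0.65) and VPA (-0.35). ELF3, an epithelial ETS factor, was higher with VD3 (0.83). With VPA, CREB3L3, a factor of lipid metabolism in liver and gut, averaged 86.0 FPKM against 20.5 FPKM in Control (2.02, adjusted p = 2.66e-08), FOXA2 was higher (0.59) and PRDM1, a repressor of the fetal intestine in mouse, was lower (-0.76). HNF4A, the nuclear receptor that works with CDX2 and the GATA factors in enterocytes, averaged 44.7 ± 1.94 FPKM in VD3VPA, 52.0 ± 1.21 FPKM in VD3, 40.9 ± 1.65 FPKM in VPA and 46.1 ± 1.21 FPKM in Control, and it was named after its values were seen.

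**Figure D5:**
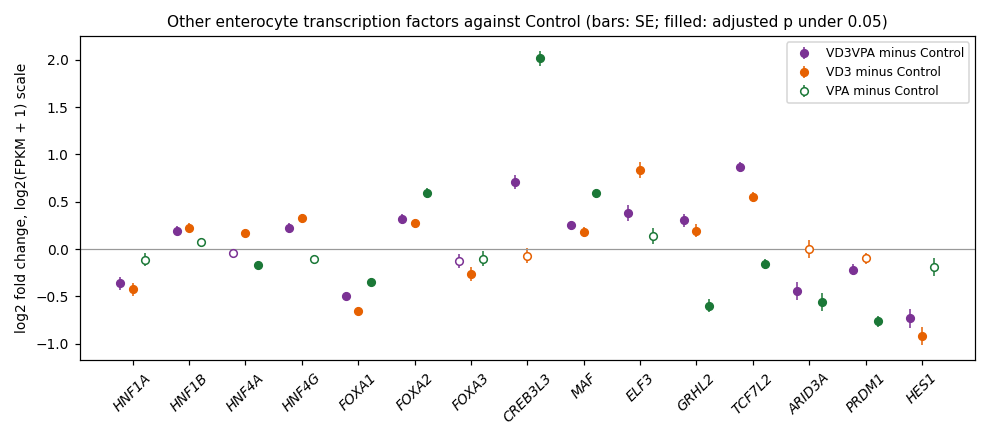
Log2 fold change against Control (points, bars show the SE) of 15 of the 16 other expressed enterocyte transcription factors in VD3VPA, VD3 and VPA, where filled points have an adjusted p under 0.05. CREB3L3 reaches 2.02 with VPA, and TCF7L2 is at 0.87 with VD3VPA.

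Factors of other intestinal lineages and of position along the gut were mostly absent. Of 15 secretory and stem lineage factors, 2 were expressed, and 7 that include ATOH1, which specifies secretory cells, stayed under 0.1 FPKM in every library. SOX9, a crypt factor, averaged 2.40 FPKM in VD3VPA, 2.64 FPKM in VD3, 2.89 FPKM in VPA and 6.31 FPKM in Control (-1.10 with VD3VPA, -1.01 with VD3 and -0.91 with VPA, all called). SOX4 averaged 5.65 FPKM in VPA and 10.2 FPKM in Control (-0.75), and was higher with VD3VPA (0.30) and VD3 (0.36). Of 19 regional factors, 3 HOX genes were expressed. HOXC8, which passed the filter of 1 FPKM mainly through Control, averaged 0.446 FPKM in VD3VPA, 0.566 FPKM in VD3, 0.978 FPKM in VPA and 3.39 FPKM in Control (-1.60 with VD3VPA, -1.48 with VD3 and -1.15 with VPA). The gastric peptide TFF1 fell beside them (-2.21 with VD3VPA, -1.18 with VD3 and -2.39 with VPA), while the gastric mucin MUC5AC was under 0.1 FPKM throughout. The 8 goblet and enteroendocrine markers summed to 63.2 to 71.4 FPKM in VD3VPA, 76.5 to 115 FPKM in VD3, 36.0 to 43.4 FPKM in VPA and 32.0 to 35.8 FPKM in Control. Of these, 2 passed the filter. ZG16 was higher with VD3VPA (1.05) and VD3 (1.62), and CHGA was lower with VD3 (-0.71) and VPA (-1.32). Whether these other cell identities bear on the 8 factors was not tested.

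Among genes known to be targets of the factors, some rose and others fell in the same comparison. Of 15 known CDX2 targets, 13 were expressed, and with VD3VPA 5 were higher and 7 lower, against 31.1% and 33.1% of all genes. CDX2 itself differed from Control by 0.04 there and did not pass. Lactase (LCT) averaged 152 FPKM in VD3VPA, 93.3 FPKM in VD3, 7.87 FPKM in VPA and 4.64 FPKM in Control (a change of 4.76 with VD3VPA, 4.07 with VD3 and 0.65 with VPA), and the claudin CLDN2 averaged 82.0 FPKM in VD3VPA, 47.9 FPKM in VD3, 2.82 FPKM in VPA and 2.57 FPKM in Control. SI (-0.96) and the goblet peptide TFF3 (-2.06) were lower with VD3VPA, as were ISX and CDX1, which are on this list too. The mean of SI was near or under the filter of 1 FPKM in every group, and SI passed that filter only through Control, where it was highest. With VPA, 4 of the 13 were higher and 2 lower (29.6% and 23.1% of all genes), which became 2 and 4 with equal FPKM sums, 3 and 3 under quantile normalization and 1 and 4 with own totals.

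All 8 known GATA targets listed were expressed, of which LCT, SI and CLDN2 are also on the CDX2 list. With VD3VPA 4 were higher and 2 lower (31.1% and 33.1% of all genes), and with VPA alone 2 were higher and 3 lower (29.6% and 23.1% of all genes). SI, counted as lower in both, passed the filter only through Control. The ileal bile acid binding protein FABP6 averaged 16.0 FPKM in VD3VPA, 24.0 FPKM in VD3, 0.476 FPKM in VPA and 1.08 FPKM in Control. FABP1 averaged 639 FPKM in VD3VPA, 481 FPKM in VD3, 239 FPKM in VPA and 421 FPKM in Control, and the VD3 effect on it was larger with VPA (difference 1.24, adjusted p = 0.000831), as it was on GATA4. The ileal bile acid transporter SLC10A2 fell with VD3VPA (-0.65), VD3 (-0.27) and VPA (-1.08).

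Of 12 known KLF4 and KLF5 targets, 10 were expressed, with 2 higher and 5 lower in VD3VPA, 4 and 3 in VD3, and 4 and 4 in VPA. The shares of all genes higher and lower were 31.1% and 33.1% with VD3VPA, 31.3% and 31.2% with VD3, and 29.6% and 23.1% with VPA, and equal FPKM sums gave 1 higher and 6 lower with VD3VPA. Intestinal alkaline phosphatase (ALPI), which KLF4 activates, averaged 314 FPKM in VD3VPA and 9.87 FPKM in Control (4.85, adjusted p = 1.22e-11), while KLF4 was lower. The growth genes MYC (-2.84) and CCND1 (-1.23), of which CCND1 is a known target of KLF5, were lower in VD3VPA while KLF5 was higher. The growth factor PDGFA was higher, as KLF5 was, with VD3VPA (0.25, adjusted p = 0.0212) and with VD3 (0.91, adjusted p = 3.07e-06). FGFBP1 was higher with VD3 (0.84, adjusted p = 0.000363). PDGFA with VD3VPA, FGFBP1 with VD3 and, below, CCNB1 were named after their values were seen. ODC1, the ornithine decarboxylase of polyamine synthesis, averaged 293 FPKM in VD3VPA, 479 FPKM in VD3, 92.5 FPKM in VPA and 431 FPKM in Control, and it was lower with VPA (-2.21, adjusted p = 3.05e-07). The cell cycle inhibitor CDKN1C averaged 168 FPKM in VD3VPA, 178 FPKM in VD3, 416 FPKM in VPA and 187 FPKM in Control (1.14 with VPA), and CDKN1A was higher with VPA (0.46). In the test of the VD3 effect with and without VPA, 2 of the 10 targets were called higher and 5 lower, against 19% and 25.3% of all genes. CDKN1C (-1.23) and CDKN1A (-0.70) were lower in it, as KLF4 was, while ODC1 (1.5, adjusted p = 8.43e-05) and the cyclin CCNB1 (0.54, adjusted p = 0.000573) were higher. Of the ISX target genes and retinoid receptors, the repressed carotenoid oxygenase BCO1 was under 0.1 FPKM in every library. The scavenger receptor SCARB1, the other gene that ISX represses, averaged 106 FPKM in VD3VPA, 92.3 FPKM in VD3, 63.5 FPKM in VPA and 46.1 FPKM in Control (1.18 with VD3VPA, 0.99 with VD3 and 0.46 with VPA). The retinoic acid receptor RARB averaged 0.464 FPKM in VD3VPA, 1.03 FPKM in VD3, 1.36 FPKM in VPA and 2.40 FPKM in Control (-1.22 with VD3VPA, -0.74 with VD3 and -0.53 with VPA).

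For each factor the protein-coding genes with the most similar pattern were found by the root-mean-square difference of log2(FPKM + 1) over the 4 group means, after centring each gene on its own mean. CDX1 was closest to the metallothionein MT1G (0.0276) and ANTXR2 (0.0315), against a distance of 0.382 for CDX1 from a flat line. GATA5 was closest to SMTN (0.0342) and then to CDX1 itself (0.0370), its own distance from a flat line being 0.390. GATA6 was closest to BEX4 (0.00581) and NAPEPLD (0.0116), KLF5 to PROSER2 (0.0333) and TP53I3 (0.0347), and KLF4 to DUOX1 (0.0320) and PTTG1IP (0.0325). For GATA4 these were ZNF652 (0.0108) and ZNF827 (0.0179), for ISX CSTF3 (0.0103) and PAK1 (0.0113), and for CDX2 C6orf136 (0.00974) was among these, with CDX2 itself only 0.108 from a flat line. With 4 group means, many protein-coding genes among the 12561 tested can lie this close, and the measure is a description.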

How the data were processed

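RNA was measured in 12 libraries, 3 in each of 4 groups, taken from the sample titles and treatments in the labels. The authors deposited FPKM values for 58735 genes together with each gene's length, per the file headers. Per the labels' protocols, mRNA was captured on poly-T beads and made into libraries with a NEBNext Ultra kit. GRCh38.p13 is the genome build in the submitters' processing notes, which list DESeq2 1.20.0, HISAT2 2.0.5 and featureCounts 1.5.0-p3 without saying what each did. Whether counting used strand is not given in the sources used here. Multiplying each FPKM by gene length and a constant per library turned 100% of values into whole fragments (within 0.01), which served for depth, for fragment counts and for 1 alternative test.

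Genes of 1 FPKM or more in at least 3 libraries, without those on chromosome Y, 12561 in all, were tested on log2(FPKM + 1) with limma 3.58.1 (R 4.3.3, with statmod 1.5.0 and data.table, version 1.17.8) with a trended prior, a mean per group, 8 residual and 3.28 prior degrees of freedom, and Benjamini-Hochberg adjustment over all genes within each of the 6 comparisons. The fit was tested on simulated data with known changes. Python 3.11.15 with pandas 2.3.3, numpy 2.4.6 and matplotlib 3.10.9 prepared tables and figures. The 8 factors, the gene lists and the tests were chosen with earlier results of these data known, so no pattern here is independent evidence. The rule named all 8 factors, the (at most 3) lowest adjusted p of each list in a comparison described, and the 2 genes most like each factor, of which 2 genes in all are not reported here. Some genes and comparisons outside that rule are given too. Promoter windows came from RefSeq (GRCh38.p14), where 5 of the 8 factors had an entry. Bases in an annotated exon of the gene were left out. Alternatives changed the pseudocount, the filter, the scaling, the model, the groups fitted and the replicate block, or removed 1 library at a time. Libraries of a group differed by more than sampling noise (chi-square per gene 3.4 to 17.0).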

Additional observations from a re-analysis of the deposited data

Results flagged for a closer look

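The VD3 effect differed between cultures with and without VPA for 3 of the 8 factors, by a test of the difference itself that called 44.3% of all genes. For GATA4 the difference was 0.39 on the log2 scale, for KLF4 it was -0.69 and for KLF5 it was -0.34. In KLF4 the 2 effects also had opposite signs, at -0.51 with VPA and 0.18 without it, and the effect without VPA did not pass the test (adjusted p = 0.103, limma). The differences of GATA4 and KLF4 held in all 20 alternatives, with adjusted p of up to 0.0362 and 0.00546, and that of KLF5 in 18 of 20.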

How the results depend on the processing

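Of the 988 values of single factors under alternatives, 908 kept their direction and their side of the threshold, 34 lost a call, 25 gained one and 21 changed sign. Raising the filter to 5 FPKM in 3 libraries tests fewer genes, and the genes called became 4883 (from 8072) for VD3VPA against Control, 4785 (from 7852) for VD3, 4183 (from 6614) for VPA, 2877 (from 4359) for VD3VPA against VD3, 4825 (from 7948) for VD3VPA against VPA and 3647 (from 5566) for the test of the VD3 effect with VPA against that without it (the test of both VD3 effects). CDX1 and ISX then drop out, leaving 2 factors lower with VD3VPA and 1 with VD3. In VPA against Control, the count of factors higher was 0 with no filter, equal FPKM sums, quantile normalization, own fragment totals or only the groups compared (limma), where KLF4 was the 1 call lost. The count lower was 4 with equal sums, 3 under quantile normalization and 4 with own totals. Over all genes 3753, 3591 and 4551 were then called lower, against 2899 in the deposited scaling. In the test of both VD3 effects, quantile normalization and own totals each gave 2 higher and 1 lower. Over all genes quantile normalization gave 2880 higher and 2677 lower, and own totals 4109 higher and 1998 lower. With 1 library left out, factors higher ranged from 2 to 4 with VD3 and from 0 to 2 with VPA. Factors lower then ranged from 1 to 3 with VPA, and the cause was not tested. All genes called ranged from 7118 to 7760 with VD3 and from 5875 to 6582 with VPA. CDX2 in VD3VPA against Control changed sign, from -0.014 to 0.14 with 1 library left out, and passed the test only without Control replicate 3 (adjusted p = 0.0448). The other values that changed sign had missed the test throughout: GATA4 in VD3 against Control from -0.025 to 0.11 (-0.020 with own totals), and KLF5 in VPA against Control from -0.027 to 0.078 (-0.059 with equal sums, -0.088 under quantile normalization, -0.11 with own totals). In the test of both VD3 effects CDX1 ranged from -0.19 to 0.061 (0.041 with own totals), ISX from -0.067 to 0.16 and CDX2 from -0.045 to 0.11. Replicate numbers are shared by the groups. Of 18 same-numbered pairs of libraries, 3 correlated above 0.1 (r from -0.08 to 0.15). Of 36 pairs with different numbers, 2 did (r from -0.193 to 0.115). With correlations this weak, it cannot be told whether the numbers pair the libraries. With the replicate block, 8022, 7764, 6544, 4233, 7881 and 5447 genes were called in the same order of comparisons. CDX2 was added to the factors higher with VD3 (0.14, adjusted p = 0.049) and ISX lost from those lower (adjusted p = 0.0676), and 2 factors were lower with VPA, CDX2 being added (-0.15, adjusted p = 0.0443). The test on recovered fragments (voom) called 8161, 7914, 6755, 4462, 7951 and 5573 genes. The depth of 54 to 294 fragments limits CDX1 most.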
